A study of Pararge aegeria with 4 samples.

Results

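Cytosolic ribosomal proteins are the proteins that, with ribosomal RNA, build the ribosomes of the cytoplasm. They were examined here in the ovary of the speckled wood butterfly, Pararge aegeria. Contigs were taken as members where an annotation column named a ribosomal protein or an RpL or RpS symbol, and contigs that named a mitochondrial protein or a kinase, or whose nucleotide hit was from Mus musculus, were left out. This gave 115 contigs, which belonged to 103 of the genes that the Trinity assembler had distinguished. The 17636 annotated contigs that the authors kept from the assembly held 9873 such genes.

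Ovaries came from mated, laboratory-reared females killed when egg production was at its peak, and a pair of females gave each library. The Zonza females came from a newly established stock from Corsica, and the St Hubert females from a laboratory stock from the south of Belgium that has been used in earlier work. Neither population is described with a treatment or an engineered allele, and total RNA was extracted in the same way from both. Each population gave 1 mRNA library, so differences between Zonza and St Hubert have no replicate check, no test was possible, and population, stock history and library cannot be told apart.

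A eukaryotic ribosome has a large subunit, which forms peptide bonds, and a small subunit, which decodes the mRNA. Nearly every ribosomal protein is present once in each ribosome, while the acidic stalk proteins P1 and P2, which recruit the GTPases of translation, are present in several copies. In ovaries with nurse cells, as in butterflies and moths, these cells make ribosomes in bulk and pass them to the oocyte, so that the early embryo can translate with maternal ribosomes.

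The annotation covered almost the complete set of cytosolic ribosomal proteins. Of 80 families looked for, 79 had a gene among the members, with 44 families of the large subunit, 3 stalk proteins and 32 families of the small subunit. The family without a member was RACK1, a scaffold protein of the small subunit whose usual name contains the word kinase. Its gene (c11393_g1) stood outside the rule and had 992 FPKM in Zonza and 921 FPKM in St Hubert. FPKM are mapped fragments scaled by contig length and by the number of fragments mapped in the library. The values of all contigs of a gene that met the rule were added. In 4 member genes, further contigs did not meet the rule and were left out of these sums.

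Annotation and label matched for most members, with exceptions. Of the 79 genes with the highest level of each family, 73 carried the gene ontology term for a structural constituent of the ribosome. This term does not tell cytosolic from mitochondrial ribosomes. It was assigned in part from BLASTx hits, whose names the rule also read, so it is no separate check of the label. The term stood on 80 of all 115 member contigs and on 170 of all annotated contigs. The proteins of the 79 genes had a median BLASTx similarity of 95.1%, against 71.9% over all contigs. Since the rule read the BLASTx names, this is no separate check of the label either. The nucleotide hits of the 79 genes, which the rule itself read, were most often to other butterflies and moths, with 24 to Euphydryas aurinia and 19 to Heliconius melpomene. The other 24 members were of mixed kind: 19 were further genes of these families, 11 of them with no contig of at least 500 bases, and 5 belonged to no cytosolic family. On 4 of the 79 highest genes the contig also carried the name of another protein in the earlier annotation of the species. These were RpL22 (signal peptidase complex subunit 3), RpS18 (catecholamines up), RpS12 (a zinc finger MYND protein) and RpL36A (WASH complex subunit CCDC53). All reads of such a contig counted toward its FPKM, and whether it holds sequence of both proteins was not checked.

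The tissue label was checked with lists of markers for the ovary and for tissues around it. All 10 germline genes found were at 1 FPKM or more on average, and vasa, an RNA helicase of germ cells, had 67.9 FPKM in Zonza and 82.2 FPKM in St Hubert. Chorion and vitelline membrane genes, which follicle cells use to build the eggshell, summed to 11005 FPKM in Zonza and 3390 FPKM in St Hubert. Of these 18 genes, 11 were at least 2-fold higher in Zonza, where 5.2% of all genes were. The 6 genes of the fat body list, among them vitellogenin, summed to 7301 FPKM in Zonza and 3071 FPKM in St Hubert. The 11 muscle genes summed to 501 FPKM in Zonza and 577 FPKM in St Hubert, and the 4 blood cell genes to 7.79 FPKM in Zonza and 6.78 FPKM in St Hubert. Of these 4, 3 were at least 2-fold lower in Zonza, where 5.11% of all genes were, and 1 (c15792_g1) had 6.56 FPKM in Zonza and was listed at 0 in St Hubert. The median of the 4 was 0.505 FPKM in Zonza and 2.065 FPKM in St Hubert, a level at which ratios have no stated error. In such tissue libraries fewer cells of a type and less RNA per cell cannot be told apart.

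Ribosomal protein mRNAs made up a large and similar share of the summed FPKM of annotated contigs in both populations. The sums covered only contigs that the authors kept for a BLAST hit, so the share of the whole assembly is not given. The 103 members held 18.6% of all summed FPKM in Zonza and 19.3% in St Hubert. The 79 highest genes alone held 18.4% in Zonza and 19.2% in St Hubert. With eggshell and fat body genes left out of the sum, the members held 19.2% in Zonza and 19.6% in St Hubert. Because each family is represented by the gene with the highest level, the gap between these genes and the further members is set by that choice.

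The families stood near the top of the genes with annotated contigs. Ranked by the mean of both libraries, 6 of the 20 highest genes, 30 of the 50 highest and 61 of the 100 highest were cytosolic ribosomal proteins. The median family had 1338 FPKM in Zonza and 1307 FPKM in St Hubert, against a median over all genes of 18.8 FPKM in each library. In Zonza 54 families reached 1000 FPKM, and in St Hubert 57 did. The families of the large subunit had a median of 1360 FPKM in Zonza and 1338 FPKM in St Hubert, and those of the small subunit a median of 1252 FPKM in Zonza and 1292 FPKM in St Hubert.

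**Figure D1:**
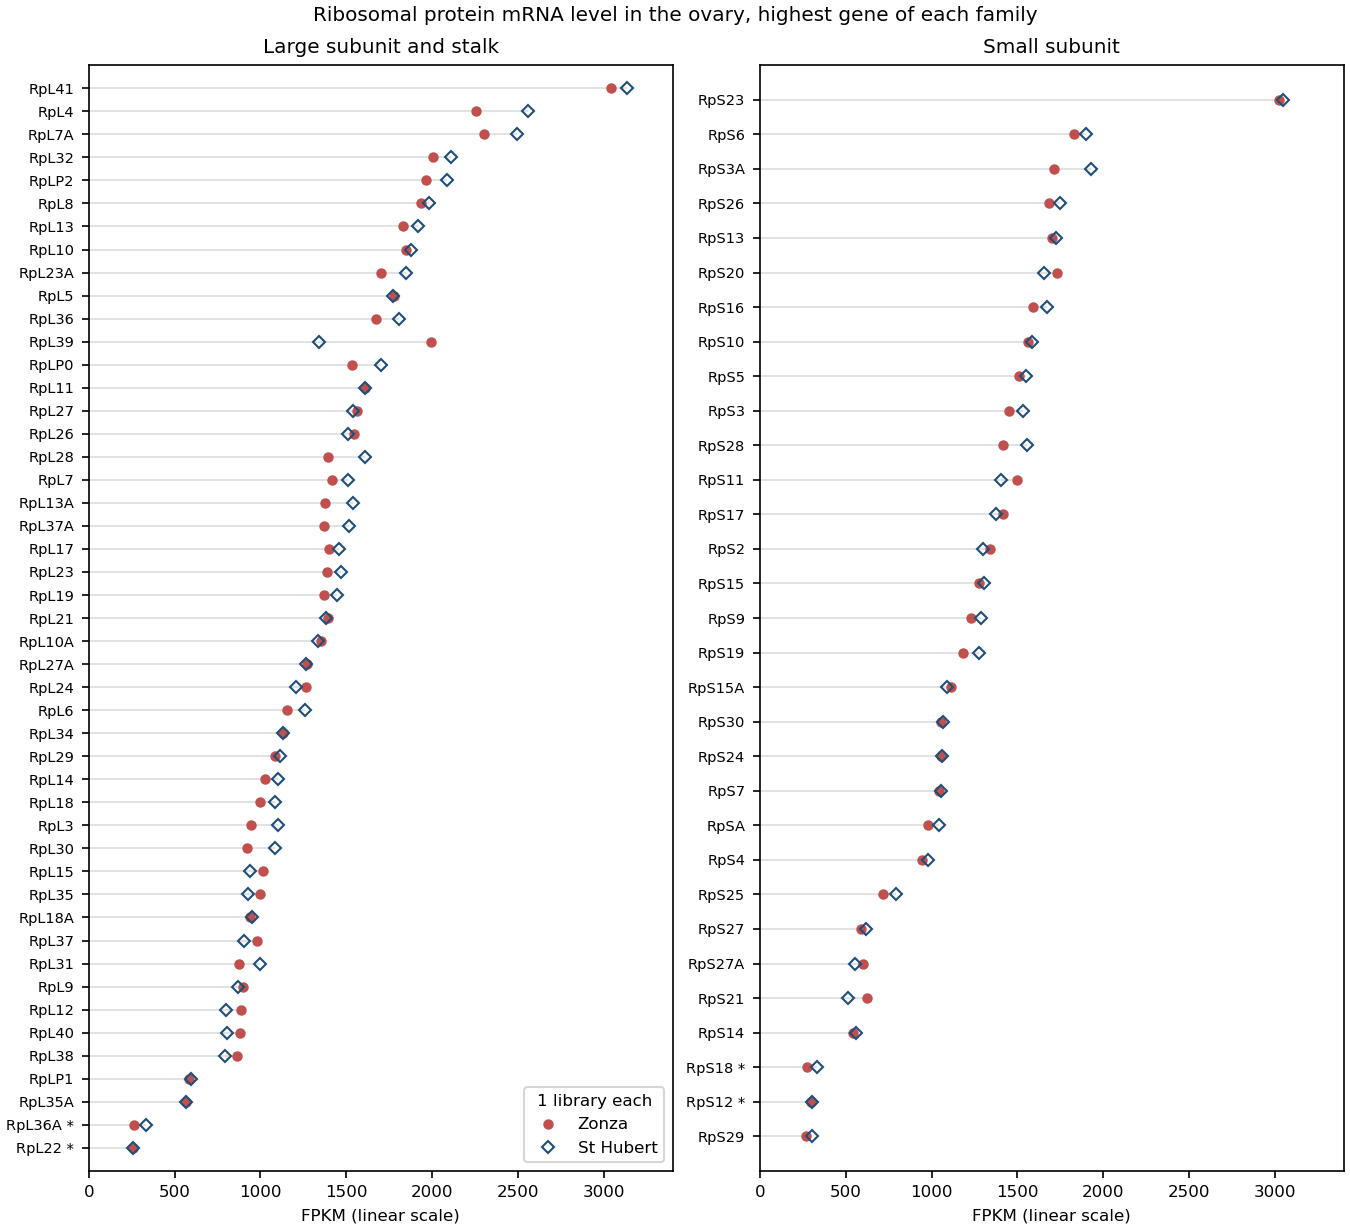
FPKM (horizontal axis, linear) of the highest gene of ribosomal protein families, 78 of the 79 drawn, with Zonza as filled circles and St Hubert as open diamonds, 1 library each. Families are ordered by mean level within the large subunit with its stalk (left) and the small subunit (right), and an asterisk marks a contig that also carries another protein's name. The symbols of a family lie close together next to the 11.7-fold span of levels in Zonza and 12.1-fold span in St Hubert.

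The mRNA levels were not equal among families. The highest family exceeded the lowest by 11.7-fold in Zonza and 12.1-fold in St Hubert, and the coefficient of variation over families was 42.6% in Zonza and 43.5% in St Hubert. Over all 79 families the 90th percentile exceeded the 10th by 3.17-fold in Zonza and 3.38-fold in St Hubert. Without the 4 contigs that carry another protein's name, this was 2.45-fold in Zonza and 2.43-fold in St Hubert.

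In the large subunit the highest mRNA was that of RpL41 (c21379_g1), the smallest ribosomal protein, with 3043 FPKM in Zonza and 3132 FPKM in St Hubert. RpL4 (c13885_g1), which lines the tunnel through which the new peptide leaves, had 2256 FPKM in Zonza and 2558 FPKM in St Hubert. RpL7A (c12816_g3) had 2299 FPKM in Zonza and 2493 FPKM in St Hubert. These genes were followed by RpL32, known in Drosophila as rp49 and widely used as a reference gene there, with 2004 FPKM in Zonza and 2109 FPKM in St Hubert. RpL8, which lies beside the peptidyl transferase centre, had 1934 FPKM in Zonza and 1983 FPKM in St Hubert. All 5 were lower in Zonza, by at most 0.18 on the log2 scale.

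At the low end of the large subunit, RpL22 (c12153_g1) had 259 FPKM in Zonza and 259 FPKM in St Hubert, and RpL36A (c9285_g1) had 266 FPKM in Zonza and 336 FPKM in St Hubert. Both values come from contigs of at least 1828 bases that also carry another protein's name. RpL35A, mutated in some human patients with Diamond-Blackfan anaemia, had 566 FPKM in Zonza and 568 FPKM in St Hubert. RpL38, which in mouse embryos affects the translation of Hox mRNAs, had 864 FPKM in Zonza and 792 FPKM in St Hubert.

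In the small subunit RpS23 (c27068_g1), a protein of the decoding centre, stood alone at the top with 3020 FPKM in Zonza and 3045 FPKM in St Hubert. By the mean of both libraries RpS6 (c12520_g1), the substrate of S6 kinase in the TOR growth pathway, was next. It had 1828 FPKM in Zonza and 1900 FPKM in St Hubert. RpS3A had 1712 FPKM in Zonza and 1925 FPKM in St Hubert. RpS26, which lies where the mRNA leaves the subunit, had 1685 FPKM in Zonza and 1749 FPKM in St Hubert.

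By the mean of both libraries, the lowest small subunit mRNA was RpS29 (c7528_g1), a small zinc-binding protein, with 268 FPKM in Zonza and 304 FPKM in St Hubert. Its contig of 1090 bases carries no other name. RpS12 (c8540_g1) had 298 FPKM in Zonza and 302 FPKM in St Hubert, and RpS18 (c14984_g1) had 274 FPKM in Zonza and 335 FPKM in St Hubert. Both are on contigs that also carry another protein's name. RpS14, encoded in the human chromosome segment lost in 5q- syndrome, had 542 FPKM in Zonza and 562 FPKM in St Hubert. RpS21, whose loss in Drosophila leads to overgrown blood-forming organs, had 624 FPKM in Zonza and 514 FPKM in St Hubert.

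The stalk proteins were unequal among themselves. RpLP0 (c14725_g1), the base on which the stalk is built, had 1536 FPKM in Zonza and 1700 FPKM in St Hubert. RpLP1 (c2274_g1) had 584 FPKM in Zonza and 593 FPKM in St Hubert, and RpLP2 (c2801_g1), its partner in the stalk dimers, had 1962 FPKM in Zonza and 2085 FPKM in St Hubert. RpLP2 was thus above RpLP1 in each library. The RpLP1 contig had 1114 bases and the RpLP2 contig 621 bases, and the bearing of this length on the levels was not tested. The 3 log2 ratios of Zonza over St Hubert were -0.15 for RpLP0, -0.02 for RpLP1 and -0.09 for RpLP2.

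RpL40 and RpS27A are made as fusions to ubiquitin, the protein tag for degradation, which is cut off after translation. RpL40 (c18176_g1) had 879 FPKM in Zonza and 806 FPKM in St Hubert. RpS27A (c9812_g1) had 598 FPKM in Zonza and 555 FPKM in St Hubert. Both stood in the lower part of their subunit and on the side of higher values in Zonza, with log2 ratios of 0.13 for RpL40 and 0.11 for RpS27A. Near equality between the libraries was common, with the log2 ratios of 62.0% of families within 0.1 of 0. Examples singled out after their values were seen are RpL5 and RpL11, which join the large subunit together with 5S ribosomal RNA. RpL5 had 1775 FPKM in Zonza and 1775 FPKM in St Hubert, and RpL11 had 1610 FPKM in Zonza and 1610 FPKM in St Hubert.

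Levels were lower on longer contigs. The 23 families on contigs of at least 1000 bases had a median of 944 FPKM in Zonza and 938 FPKM in St Hubert. The 49 families on contigs of at least 500 but under 1000 bases had a median of 1386 FPKM in Zonza and 1405 FPKM in St Hubert, and the 7 on shorter contigs 1372 FPKM in Zonza and 1342 FPKM in St Hubert. Over the 79 families, Pearson's r between the log2 values of length and mean level was -0.50 and Spearman's rho -0.30, given as a description, since all points share 2 libraries and length enters the FPKM. Without the 4 contigs that carry another protein's name, r was -0.23 and rho -0.18.

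**Figure D2:**
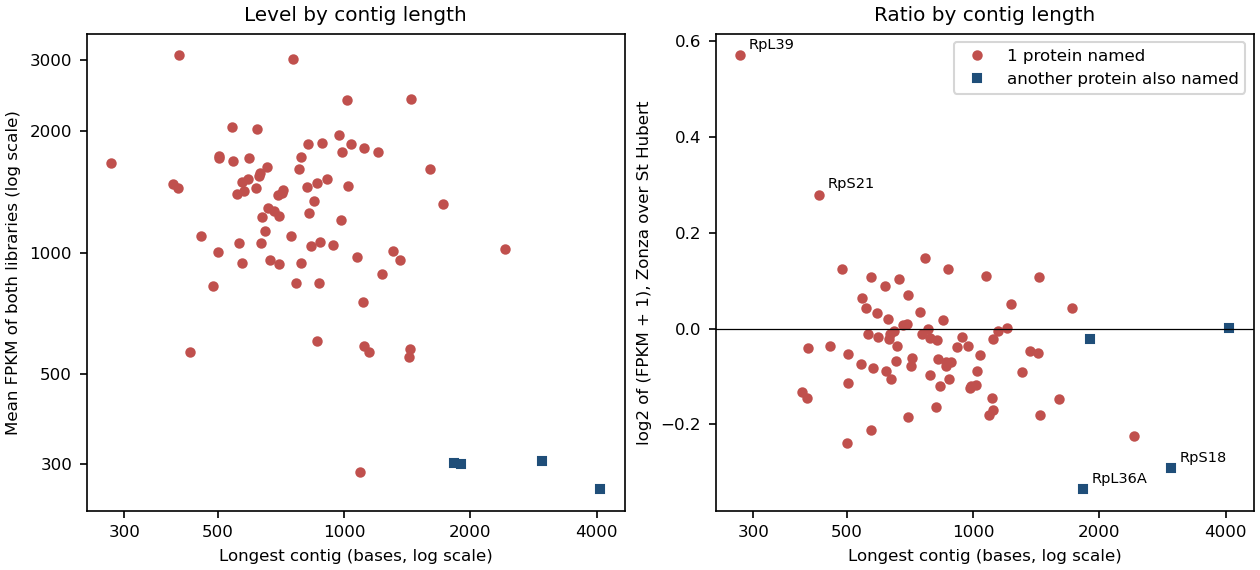
Mean FPKM of both libraries (left, log scale) and log2 of (FPKM + 1) in Zonza over St Hubert (right) against the longest contig of each family (bases, log scale). Each of the 79 points is a family, and squares are the 4 families whose contig also carries another protein's name, none above 304 FPKM. RpL39, on the shortest contig of 279 bases, has the highest ratio at 0.57.

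Zonza and St Hubert ovaries had nearly the same ribosomal protein mRNA levels. The comparison asks whether the populations, which come from different parts of Europe, differ in the ovary. Ratios are log2 of (FPKM + 1) in Zonza over St Hubert, for genes with a mean of at least 1 FPKM, which 101 of the 103 members and 9459 of all genes reached. The median over members was -0.04, with quartiles of -0.12 and 0.03, beside a median of -0.01 over all genes with quartiles of -0.29 and 0.28. At least 2-fold higher in Zonza were 3 members, where 5.2% of all genes were, and 0 members were at least 2-fold lower, where 5.11% of all genes were. Past 1.5-fold were 3 members higher in Zonza, where 11.4% of all genes were, and 3 lower, where 12% of all genes were. Past 2-fold in either direction were thus 3 members, beside 10.3% of all genes, and none of the 6 past 1.5-fold was the highest gene of a family.

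Among the 79 highest genes, ratios ran from -0.33 for RpL36A to 0.57 for RpL39, and 0 reached even 1.5-fold in either direction, where 23.5% of all genes did. The ratios of 49 families, or 62.0%, lay within 0.1 of 0 on the log2 scale, beside 19.5% of all genes. Within 0.2 lay 72 families, or 91.1%, beside 37.5% of all genes. The interquartile range of the ratios was 0.11 over families, 0.15 over all members, further genes and fragments included, and 0.57 over all genes. It was 0.55 over the 169 other genes whose level lay between those of the lowest and the highest family. Of these 169, 33 were at least 2-fold higher in Zonza and 4 at least 2-fold lower. Their levels were not matched to those of the families, with medians of 458 FPKM in Zonza and 384 FPKM in St Hubert, against 1338 and 1307 FPKM. Eggshell genes were not taken out of this set. Across the 79 families the log2 levels of the libraries correlated with a Pearson's r of 0.986 and a Spearman's rho of 0.971, given as a description, with the same contigs and lengths behind both axes.

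**Figure D3:**
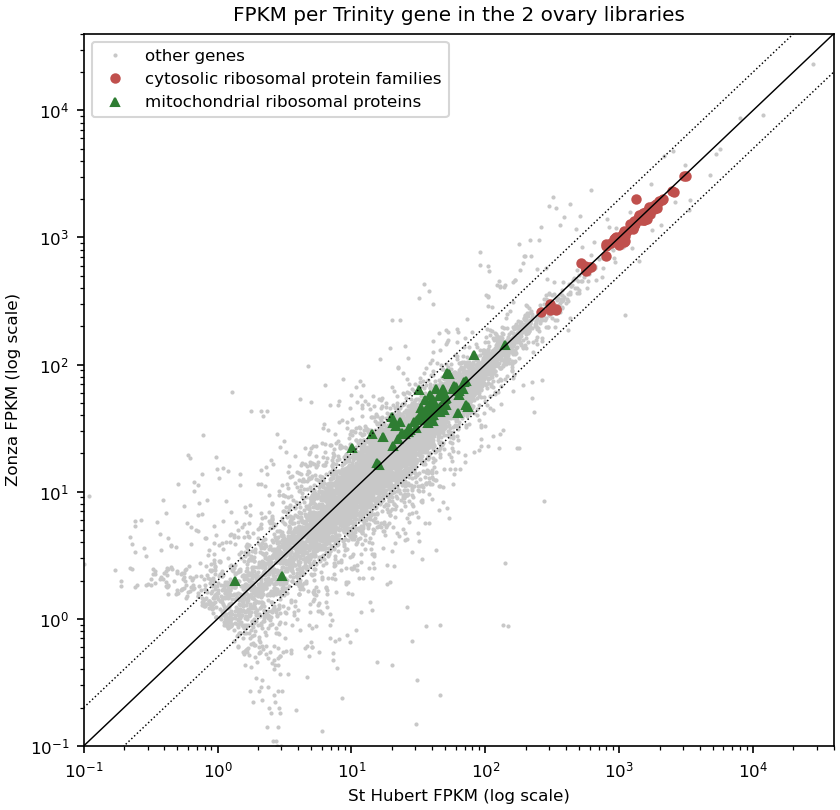
FPKM per gene in Zonza (vertical) against St Hubert (horizontal), both on log scales, with 1 point per gene that has a mean of at least 1 FPKM and a value above 0 in both libraries. The solid line is equality and the dotted lines 2-fold. The 79 cytosolic ribosomal protein families lie along equality between 259 and 3132 FPKM, and the 74 mitochondrial ribosomal proteins form a separate group at lower levels.

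The small offset was mostly to one side. Of the 79 families, 23 had a ratio above 0, or 29.1%, beside 49.3% of all genes. In the large subunit 16 of 44 families were above 0, in the small subunit 7 of 32, and in the stalk 0 of 3. The medians were -0.04 for the large subunit, -0.04 for the small subunit and -0.09 for the stalk. The offset is smaller than the quartiles of all genes and depends on how the libraries are scaled: it was -0.05 over members with both libraries brought to the same summed FPKM, and -0.02 when chorion, vitelline membrane and fat body genes were left out of the sum used for scaling.

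RpL39 (c27434_g1), a small protein of the exit tunnel, stood apart from the other families. It had 1993 FPKM in Zonza and 1342 FPKM in St Hubert, 1.48-fold higher in Zonza. Its contig of 279 bases is the shortest of all 79. RpS21 followed with a log2 ratio of 0.28 on a contig of 431 bases. RpL12, at the foot of the stalk and named after its values were seen, had 886 FPKM in Zonza and 800 FPKM in St Hubert, a log2 ratio of 0.15. The bearing of contig length on these ratios was not tested; over the 79 families r between log2 length and ratio was -0.36 and rho -0.21.

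On the other side RpL36A had a log2 ratio of -0.33 and RpS18 of -0.29, both on contigs that also carry another protein's name. The next families were named after their values were seen, apart from RpL30. RpL30 (c10179_g1), which in yeast binds its own transcript, had 921 FPKM in Zonza and 1086 FPKM in St Hubert, a log2 ratio of -0.24. RpL3 (c19634_g1), a core protein of the peptidyl transferase centre, had 944 FPKM in Zonza and 1103 FPKM in St Hubert, a log2 ratio of -0.22. Contigs of c19634_g1 outside the rule are not in these values. With all its contigs this gene ranked 74 among all genes, ahead of RpS15A, though its mean here was 1023 FPKM against 1102 FPKM. RpL28 had 1391 FPKM in Zonza and 1611 FPKM in St Hubert, a log2 ratio of -0.21.

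**Figure D4:**
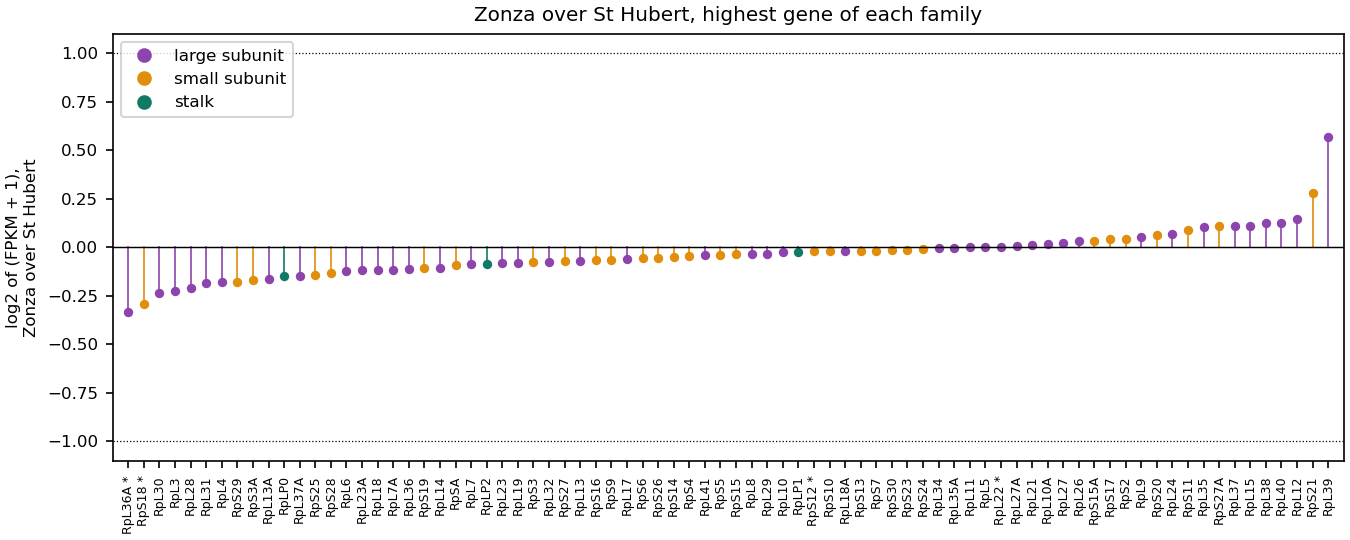
Log2 of (FPKM + 1) in Zonza over St Hubert for the highest gene of 78 of the 79 families, ordered by ratio and coloured by subunit. Dotted lines mark 2-fold, and an asterisk marks a contig that also carries another protein's name. The families drawn lie between -0.33 and 0.57, and 23 lie above 0.

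Most families were a single contig, and 3 had a highest gene with 2 member contigs. For 76 families the highest gene had 1 member contig. With contigs outside the rule counted too, 75 of the 79 highest genes had 1 contig, or 94.9%, beside 57.8% of all genes. RpL13 (c12267_g2), named after its contigs were seen, had a major contig with 1612 FPKM in Zonza and 1796 FPKM in St Hubert, and a minor contig with 215 FPKM in Zonza and 121 FPKM in St Hubert. RpS14 (c9917_g1) had a major contig with 431 FPKM in Zonza and 481 FPKM in St Hubert, and a minor contig with 111 FPKM in Zonza and 80.7 FPKM in St Hubert. In RpL13 and RpS14 the minor contig was higher in Zonza and the major contig lower, while the sums had log2 ratios of -0.07 for RpL13 and -0.05 for RpS14. RpL22 went the other way and by less, with a major contig at 222 FPKM in Zonza and 219 FPKM in St Hubert, and a minor contig at 36.9 FPKM in Zonza and 40.1 FPKM in St Hubert. How reads are divided among the contigs of a gene is an estimate that was not checked here.

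Further genes of a family were far below the main gene. Of the 19, 13 had a mean of at least 10 FPKM. RpL10A, which forms the mobile L1 stalk where spent tRNA leaves, had a main gene (c2476_g1) with 1350 FPKM in Zonza and 1334 FPKM in St Hubert. A second gene of that name (c32423_g1) had 110 FPKM in Zonza and 127 FPKM in St Hubert, with a BLASTx similarity of only 58.4%. A gene named RpL10Ab (c12398_g1) summed 4 contigs to 30.4 FPKM in Zonza and 43.4 FPKM in St Hubert, and 3 of these contigs were listed at 0 in 1 of the libraries.

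Several further genes were named for a relative of the ribosomal protein. The gene c5951_g1 was named RpL24 in the earlier annotation of the species, and both sequence hits gave RLP24, the assembly factor that in yeast holds the place of RpL24 on the immature subunit. It had 262 FPKM in Zonza and 282 FPKM in St Hubert, while RpL24 itself (c32160_g1) had 1264 FPKM in Zonza and 1205 FPKM in St Hubert. The gene c11770_g1 was named like RpLP0 and by BLASTx as mRNA turnover protein 4, the factor that in yeast precedes P0 on the immature large subunit. It had 93.4 FPKM in Zonza and 93.5 FPKM in St Hubert. The gene c16171_g1, named RpS3A in the earlier annotation, matched the deubiquitinase CYLD by BLASTx and had 24.0 FPKM in Zonza and 27.6 FPKM in St Hubert.

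Others were short fragments with a family name and no BLASTx hit. The fragment named RpL14 (c3535_g1, 245 bases) had 98.6 FPKM in Zonza and 85.2 FPKM in St Hubert, that named RpL30 (c4899_g1) had 30.2 FPKM in Zonza and 25.7 FPKM in St Hubert, and that named RpL15 (c10937_g1) had 18.9 FPKM in Zonza and 16.4 FPKM in St Hubert. Each was far below the main gene of its family. The fragment named RpS6 (c9946_g1) had 12.8 FPKM in Zonza and 10.2 FPKM in St Hubert. The fragment named RpLP2 (c9176_g1, 209 bases) had 7.30 FPKM in Zonza and 13.3 FPKM in St Hubert, a log2 ratio of -0.78. The longer RpL22-like gene c15708_g1, whose earlier name is that of another, uncharacterized protein, had 10.6 FPKM in Zonza and 13.1 FPKM in St Hubert.

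The 3 members at least 2-fold higher in Zonza were all low in level. The gene c7983_g1 matched RpS29 by BLASTx with a similarity of 59.4%, but its nucleotide hit was the RNA of the signal recognition particle of the silkmoth. It had 22.5 FPKM in Zonza and 1.31 FPKM in St Hubert, a log2 ratio of 3.35. The gene c16828_g1 had a nucleotide hit to the RpL40 ubiquitin fusion and was otherwise named for a protein that attaches glycosylphosphatidylinositol anchors. It had 20.02 FPKM in Zonza and 9.11 FPKM in St Hubert, a log2 ratio of 1.06. The gene c12417_g1, a fragment named RpL31 and given after its values were seen, had 5.58 FPKM in Zonza and 0.67 FPKM in St Hubert, from 3 contigs that were each listed at 0 in 1 library. The main genes of these families had log2 ratios of -0.18 for RpS29, 0.13 for RpL40 and -0.18 for RpL31.

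The 5 members of no cytosolic family were also low to moderate. The largest was c13353_g1, whose BLASTx hit was NHP2-like protein 1, a protein of spliceosomal and nucleolar RNA particles, with 139 FPKM in Zonza and 109 FPKM in St Hubert. The gene c12781_g1 was named for the mitochondrial protein MRP-S12 and had 26.5 FPKM in Zonza and 27.3 FPKM in St Hubert. The gene c16928_g2 matched the bacterial-type protein L20 and had 17.8 FPKM in Zonza and 26.4 FPKM in St Hubert. The only contig of c18513_g1 that met the rule, named 39S L44 and 407 bases long, had 2.43 FPKM in Zonza and 3.53 FPKM in St Hubert. Other contigs of c18513_g1, counted below with the mitochondrial ribosomal proteins, had 39.20 FPKM in Zonza and 39.21 FPKM in St Hubert. The gene c3264_g1 was listed at 0 in Zonza and had 0.89 FPKM in St Hubert.

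Other genes of protein synthesis were set beside the cytosolic ribosomal proteins without a test. The 74 mitochondrial ribosomal proteins, which build the separate ribosome inside mitochondria, had a median of 43.0 FPKM in Zonza and 38.9 FPKM in St Hubert. Their median log2 ratio was 0.18, and 59 of 74 were above 0. Their median thus lay on the other side of 0 from that of the cytosolic proteins. The 74 are Trinity genes, and c20055_g1 and c20055_g4 among them had the same values and protein name. The list also holds the contigs of c18513_g1 that did not meet the rule for members. The 13 elongation factor genes with a mean of at least 1 FPKM had a median ratio of -0.26. Elongation factor 1-alpha, which brings aminoacyl-tRNA to the ribosome, had 4948 FPKM in Zonza and 5632 FPKM in St Hubert at c13416_g1. Another Trinity gene of that name, c13416_g2, had 4518 FPKM in Zonza and 5238 FPKM in St Hubert. Elongation factor 2, the translocase, had 1624 FPKM in Zonza and 1893 FPKM in St Hubert at c12178_g2.

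The 47 initiation factor genes had a median ratio of -0.10. The 64 ribosome biogenesis factors with a mean of at least 1 FPKM had a median of 0.10, with 2 at least 2-fold higher in Zonza and 2 at least 2-fold lower. The 8 genes of RNA polymerase I, which transcribes ribosomal RNA, had a median of 0.24, and of 0.066 when only the highest contig of each gene was used. The interquartile range was 0.30 for mitochondrial ribosomal proteins, 0.31 for elongation factors and 0.30 for initiation factors, lists that include low fragments as the full set of members does. The 7 elongation factor genes with a mean of at least 200 FPKM, a limit chosen after the values were seen, had ratios from -0.36 to -0.19 with an interquartile range of 0.051. These 7 are Trinity genes, and c13416_g1 and c13416_g2 among them both carry the name of elongation factor 1-alpha.

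**Figure D5:**
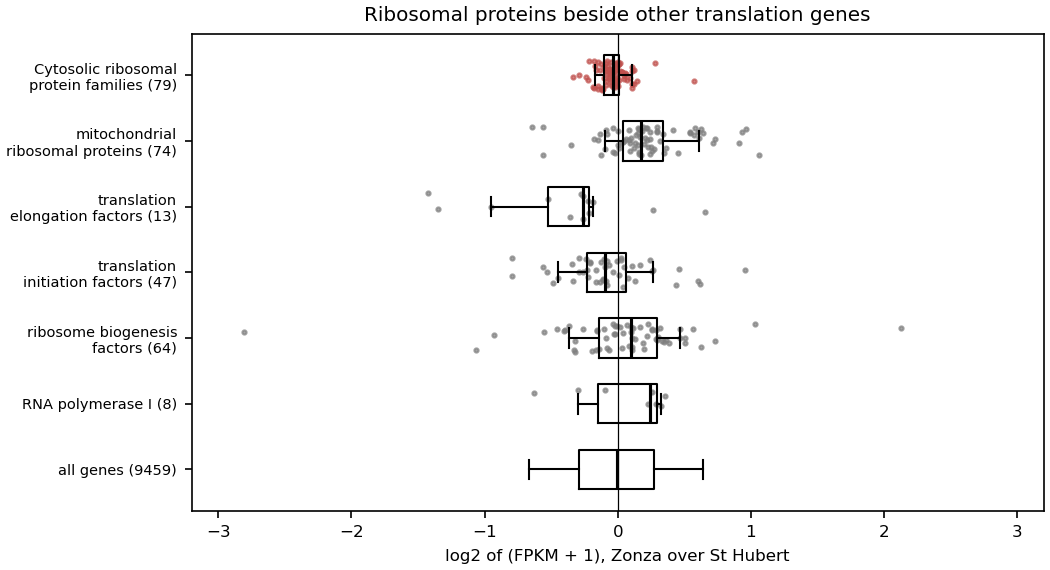
Log2 of (FPKM + 1) in Zonza over St Hubert for the 79 cytosolic ribosomal protein families, other lists of protein synthesis genes and all genes, with the number of genes in brackets. Points are genes, boxes span the quartiles with the median as a thick line, and whiskers reach the 10th and 90th percentiles; points of all genes are not drawn. The cytosolic families have a median of -0.04 and the mitochondrial ribosomal proteins of 0.18.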

How the data were processed

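Total RNA was extracted with TRIzol and treated with DNase I, and libraries were made and sequenced as paired ends by a commercial centre. The authors assembled both mRNA libraries together with Trinity, kept contigs with a BLAST hit, and deposited FPKM per contig and library, estimated with RSEM. The submitters' processing notes name Bowtie. No genome was used, and the number of fragments behind a value is not known, so no counting interval is given. The small RNA counts were not used here.

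FPKM of member contigs were summed per Trinity gene. Ratios were taken on log2(FPKM + 1) at a mean of at least 1 FPKM, with 2-fold as the threshold. Genes named were the 5 highest and 5 lowest families of each subunit, the 5 largest ratios in each direction at a mean of at least 10 FPKM, the stalk proteins, ubiquitin fusions and RpS6, families with further genes at that level, families with no gene, and members whose names disagree. One of these families is not reported by name here. Others were chosen after their values were seen. Members and lists were chosen with earlier results of these data known, and false matches were removed from the lists after names were seen. Alternatives changed the pseudocount, filter, scaling, contig summing, threshold and membership. Computation used Python 3.11.15, numpy 2.4.6, pandas 2.3.3 and matplotlib 3.10.9, and was tested on simulated data.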

Additional observations from a re-analysis of the deposited data

How the results depend on the processing

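The median ratio of the members kept its direction under all 14 alternatives, between -0.05 and -0.02. The number of members past 2-fold, 3 in the values above, was 5 with a pseudocount of 0.1, 1 with a pseudocount of 5, 8 with contigs in place of genes, 6 at 1.5-fold, 1 among contigs whose nucleotide hit names a ribosomal protein, and 0 among the highest genes of the families, the last chosen after seeing the data. The median of RNA polymerase I genes was 0.066 with the highest contig of each gene only, against 0.24. Of the 235 alternative values of single named genes, 9 moved; they belong to low genes, to genes with several contigs, or both. A change of sign was seen in 3 others, of RpL22 (-0.016 with equal sums), RpL35A (0.0014 when centred on all genes) and the RpLP0-like gene c11770_g1 (0.0060 when centred), all with ratios within 0.0053 of 0 in the values above. Of 101 members, 33 had a ratio above 0, against 28 with equal sums, 37 with ratios centred on all genes and 40 with eggshell and fat body genes left out of the scaling. No paired analysis was possible because each population had 1 mRNA library. Without fragment counts or replicates, ratios near 0 and ratios of genes at a few FPKM have no stated error.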

Other observations

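Left out of the members by their nucleotide hit were 6 further contigs with a ribosomal protein name, of 202 to 261 bases, that matched Mus musculus. They were at 0 to 1.89 FPKM in Zonza and at 0 to 1.88 FPKM in St Hubert, among 131 contigs with such a hit in all, which reached 9.35 FPKM in Zonza and 24.7 FPKM in St Hubert. No explanation for them was tested.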
